A study of Mus musculus with 9 samples.

Results

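Ubiquitin is attached to proteins by a relay of enzymes. An E1 enzyme activates ubiquitin, an E2 conjugating enzyme carries it, and an E3 ligase brings the charged E2 to the substrate. Most Ube2 genes encode E2 enzymes, and many Rnf genes encode RING finger E3 ligases, which decide where the relay acts: at the endoplasmic reticulum, on chromatin, on endosomes or in immune signaling. The 2 families were picked out of the table of kidney transcripts by symbol alone (Ube2 followed by a letter, or Rnf followed by a number). This rule used no measured value, but members and lists named below were chosen with earlier results of these data known. The families held 97 genes, 32 Ube2 and 65 Rnf, of 13081 genes in the table. The Rnf prefix marks a RING finger and not a single pathway, and the Ube2 set includes the pseudogene Ube2d-ps.

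The data were mRNA profiles of whole kidneys from wild-type C57BL/6 mice, with no transgene, mutation or treatment in either group. The young group was 3 months old (n = 4 libraries) and the old group 16 months old (n = 5 libraries), and the comparison of old with young addressed which transcripts change with physiological aging of this organ. Libraries were primed on the poly(A) tail and read from the transcript's 3′ end, so counts were not divided by transcript length. Sample names carry a different prefix in each age group, so age and anything else tied to the prefix cannot be told apart. The sex of the mice is not given in the labels.

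The libraries held 4486406 to 6355095 reads assigned to genes. Mitochondrial genes took 27% to 29.8% of reads in young and 35.8% to 38.1% in old libraries. All defining markers of the proximal tubule, thick ascending limb, distal convoluted tubule, collecting duct, podocytes and endothelium were in the table, and none of 4 adrenal markers was. Summed normalized counts of the 3 lymphocyte markers listed (of 6) were 51.6 to 120 in young and 144 to 380 in old libraries, those of 5 endothelial markers 888 to 943 and 1180 to 1410, those of 3 thick ascending limb markers 7230 to 7884 and 8332 to 11670, and those of 3 distal convoluted tubule markers 2019 to 2722 and 3977 to 4850, although 1 of these 3 was called lower. Of the 3 thick ascending limb markers, only 1 was called, as higher (median log2 fold change 0.20). The sums of 6 proximal tubule markers overlapped, at 28660 to 29590 and 26170 to 34100, with 2 of the 6 called higher and 3 lower. The sums of 5 fibroblast and mural markers overlapped, at 1473 to 1869 and 867 to 1548, with 3 of the 5 called lower and 0 higher (median log2 fold change -0.47). Those of 6 collecting duct markers overlapped too, at 2402 to 3051 and 1270 to 3228, with 4 of the 6 called lower and 1 higher (median -0.71). The part of these shifts in the results was not tested. In bulk tissue, fewer cells of a type and less RNA per cell cannot be told apart.

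More members of both families were lower than higher in old kidneys. Of the 97 members, 94 passed the filter on low values (at least 10 normalized counts in at least 4 libraries), and Ube2s, Rnf157 and Rnf227 did not. Of these, 58 were called at an adjusted p under 0.05 by limma, 61.7% against 59.7% of all 12667 genes tested, so the share of members that changed was near the background. The split by direction was 18 higher and 40 lower. Thus 19.1% of tested members were higher, where 29.2% of all genes were, and 42.6% were lower, where 30.5% of all genes were. With at least a 1.5-fold change, 41 members were called (43.6%, background 45.1%), 13 of them higher (background 21.6%) and 28 lower (background 23.6%). With at least a 2-fold change, 17 of the 94 members were called, 2 higher and 15 lower. Over all 12667 genes, 3023 were (23.9%), 1258 higher and 1765 lower. By at least 4-fold, 3 members were lower (Rnf5, Rnf7 and Rnf181) and 0 were higher. The share of all genes at that size was not counted, so these are named as single genes.

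Ube2 members accounted for 17 of the calls among 31 tested, 4 higher and 13 lower, with a median log2 fold change of -0.25 over the 31. Rnf members accounted for 41 among 63 tested, 14 higher and 27 lower, with a median of -0.28. The median over all genes tested was -0.003. Old and young values did not overlap in 15 Ube2 members (3 higher, 12 lower) and 35 Rnf members (9 higher, 26 lower), where 49% of all genes did not overlap, 23.3% higher and 25.7% lower. Together the members took 0.421% to 0.453% of all reads in young and 0.311% to 0.335% in old libraries. Counted over reads outside mitochondrial genes, these shares were 0.6% to 0.621% and 0.499% to 0.527%, still without overlap. Rescaling the libraries on nuclear genes alone moved the median of all genes up by 0.14. Calls then numbered 5 higher and 11 lower among Ube2 and 17 higher and 21 lower among Rnf members, while 41.5% of all called genes were lower instead of 51.1%.

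**Figure D1:**
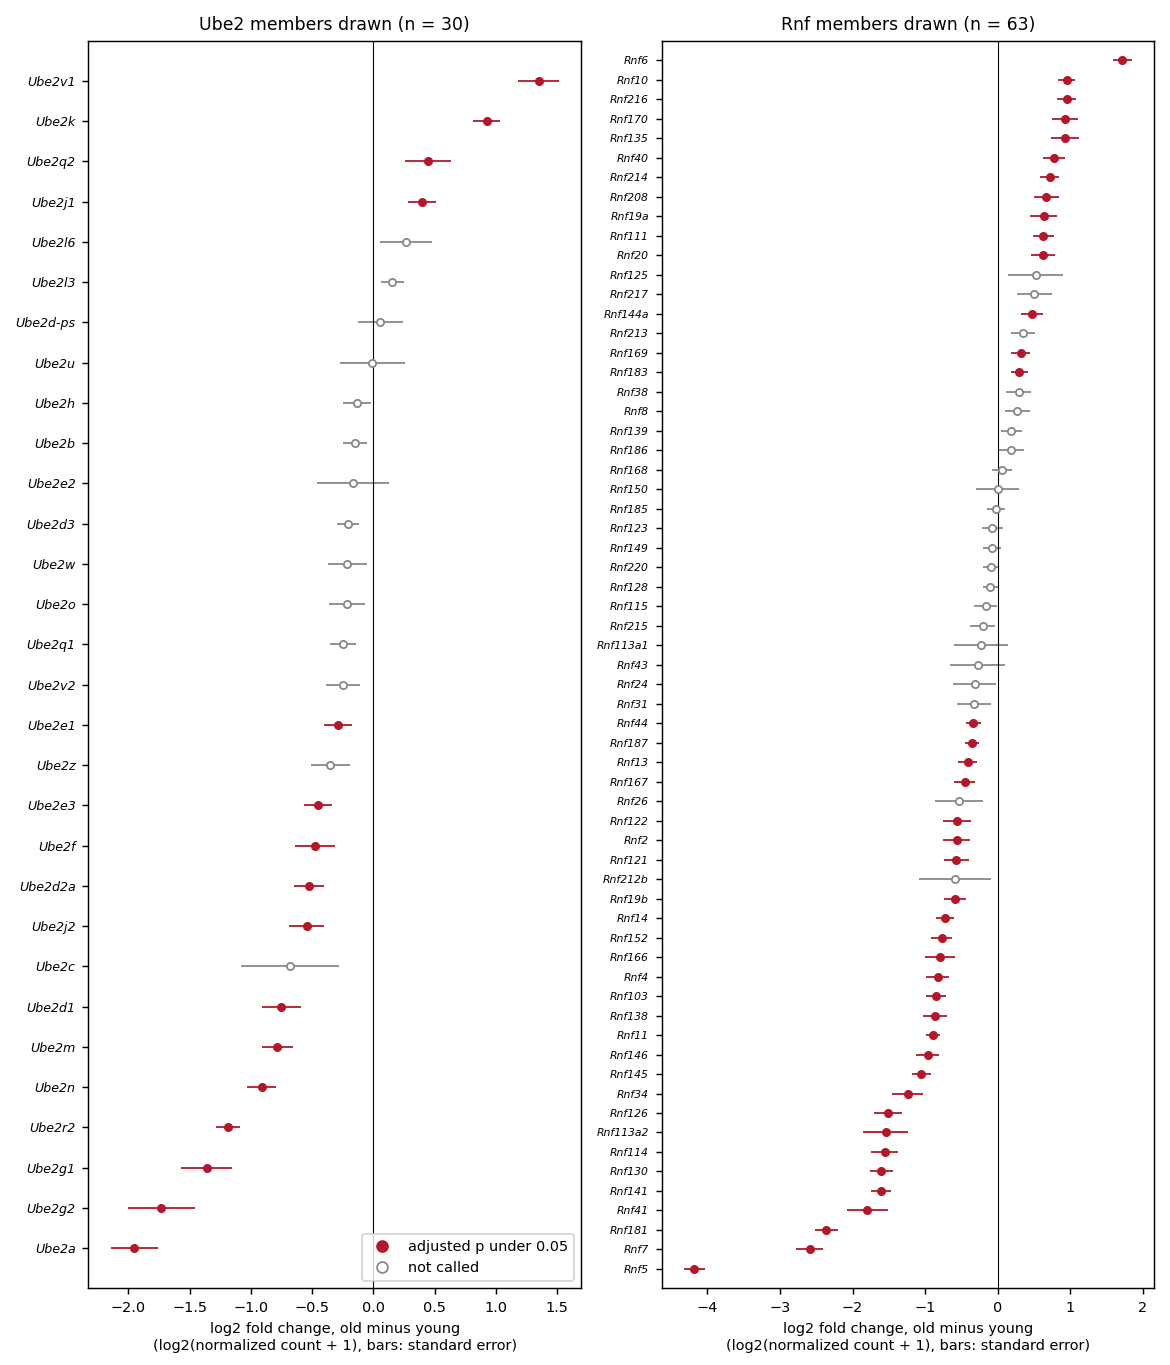
Each point is the log2 fold change of a tested member (old minus young, horizontal axis, on log2(normalized count + 1)) with its standard error, ranked within 30 of the Ube2 members (left) and 63 Rnf members (right); filled red points have an adjusted p under 0.05. Red points left of 0 outnumber those right of it, 12 to 4 for the Ube2 members drawn and 27 to 14 for Rnf, and Rnf5 lies apart at -4.18.

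Of 7 E2 enzymes that start ubiquitin chains (Ube2d, Ube2e and Ube2w members), 4 fell, 0 rose and 3 were not called, with a median of -0.29. This share of calls, 57.1%, was near the background. Differences between role groups were not tested. With the trend of level on transcript length removed from each library, Ube2e1 was at 0.04 in place of -0.29 (adjusted p 0.77) and Ube2e3 at -0.27 in place of -0.45 (adjusted p 0.0565), so neither was called. The Ube2e1 call was also lost with rescaling on nuclear genes (-0.14, adjusted p 0.283). Leaving out young replicate 1 or 2 or old replicate 2, 3 or 4 took this call too (adjusted p up to 0.18). Ube2d3, a promiscuous E2 used by a large number of RING ligases, had the highest normalized counts of them, 1301 ± 74.4 normalized counts in young (SD, n = 4) and 1130 ± 81.2 in old libraries (SD, n = 5), and it did not pass the test (-0.21, adjusted p 0.0537). It was called lower in 7 of 21 alternatives, among them without old replicate 1 (-0.24, adjusted p 0.0305) or old replicate 2 (-0.22, adjusted p 0.0455) and with the length trend removed (-0.23, adjusted p 0.0282). Its close relative Ube2d1 stood at 93.4, 115, 146 and 109 normalized counts in the young and at 56.6, 76.6, 78.1, 67.2 and 61.5 in the old libraries. The Ube2d1 groups did not overlap, and it fell by 0.75 on the log2 scale (SE 0.162, adjusted p 0.00059). With the length trend removed, Ube2d1 was at -0.43 (adjusted p 0.0305).

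Chain-building E2 enzymes, which extend chains of a given linkage, were called in both directions. Of 8 tested, 4 fell and 2 rose, with a median of -0.80. All 6 calls were at least 1.5-fold, 75% of the 8, against 59.7% of all genes called and 45.1% called with at least that change. Ube2n, which builds chains used in signaling and DNA repair, had 445, 369, 383 and 442 normalized counts in young and 256, 246, 203, 182 and 206 in old libraries. All old values lay below all young ones, and Ube2n fell by 0.91 (SE 0.119, adjusted p 2.77e-06). Ube2v1 is a catalytically inactive E2 variant that pairs with Ube2n, and its young libraries held 354, 312, 306 and 378 normalized counts against 895, 648, 604, 1161 and 1138 in old. Its groups did not overlap either, in the opposite direction (1.35, SE 0.165, adjusted p 1.28e-06). The log2 ratio of Ube2v1 to Ube2n within a library was -0.33 to -0.22 in young and 1.39 to 2.67 in old libraries. Of the annotated Ube2v1 sequence, 58% of 50-base stretches also occur in another gene, and the gene overlaps another on the same strand, so its level is uncertain.

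Ube2k, another chain-building E2, was the other riser, with 272, 299, 276 and 246 normalized counts in young and 480, 454, 497, 560 and 617 in old libraries (0.93, SE 0.109, adjusted p 8.2e-07). Every old library exceeded every young library. In contrast, Ube2r2, an E2 of the Cdc34 type that works with cullin ligases, went from 1722 ± 76.5 (SD, n = 4) to 761 ± 108 normalized counts (SD, n = 5), a log2 change of -1.19 (SE 0.101, adjusted p 1.37e-08). Its young mean was the highest of all Ube2 members. Ube2g1 fell as well (-1.36, SE 0.209, adjusted p 1.8e-05), from 191 ± 20.7 (SD, n = 4) to 77.6 ± 27.8 normalized counts (SD, n = 5).

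Of 3 E2 enzymes of the endoplasmic reticulum, 2 were called lower and 1 higher, where 59.7% of all genes were called. They serve the quality-control route that returns misfolded proteins to the cytosol for degradation. Ube2g2 had 115, 118, 93.1 and 86 normalized counts in young and 14.1, 49.2, 23.3, 36.4 and 40.3 in old libraries. The highest old library was thus below the lowest young one, and Ube2g2 fell by 1.73 (SE 0.273, adjusted p 2.44e-05). Ube2j1 and Ube2j2, which are anchored in the membrane of the endoplasmic reticulum, moved apart: Ube2j1 rose by 0.40 (SE 0.112, adjusted p 0.00494) and Ube2j2 was at -0.55 (SE 0.142, adjusted p 0.00286). Within a library, the log2 ratio of Ube2j1 to Ube2j2 was -0.98 to -0.37 in young and 0.04 to 0.64 in old libraries.

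Ube2a and Ube2b are the mouse counterparts of yeast Rad6, and with the ligase Rnf20-Rnf40 they attach ubiquitin to histone H2B. Ube2a had 215, 227, 203 and 224 normalized counts in young and 61.3, 72.2, 62.9, 60.6 and 30.8 in old libraries, while Ube2b had 374, 434, 375 and 424 in young and 364, 339, 373, 355 and 375 in old. The Ube2a groups lay far apart and the Ube2b groups overlapped. Accordingly, Ube2a fell by 1.95 (SE 0.193, adjusted p 8.91e-08) and Ube2b did not pass the test (-0.15, SE 0.096, adjusted p 0.188). The log2 ratio of Ube2a to Ube2b was -0.93 to -0.80 in young and -3.56 to -2.22 in old libraries; the pair was looked at after its values were known, so this is a description. The pair is shown with the 250 bases before a start site of each (RefSeq, GRCm38.p6). Capitals mark CACGTG, the letters of the E-box that basic helix-loop-helix factors such as TFEB, a factor of interest to the study, can bind. Ube2a (chrX:36874045-36874294, plus strand) has 0 such matches in this window and Ube2b (chr11:52000787-52001036, minus strand) has 3, whose first letters lie 107, 76 and 10 bases before the start. RefSeq lists a second Ube2b start nearer the gene body, with 0 matches.
Ube2a: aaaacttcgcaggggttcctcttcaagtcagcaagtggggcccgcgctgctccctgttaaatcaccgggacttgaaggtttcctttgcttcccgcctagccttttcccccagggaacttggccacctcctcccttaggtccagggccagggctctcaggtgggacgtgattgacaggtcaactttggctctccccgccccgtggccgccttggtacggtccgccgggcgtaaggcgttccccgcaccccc
Ube2b: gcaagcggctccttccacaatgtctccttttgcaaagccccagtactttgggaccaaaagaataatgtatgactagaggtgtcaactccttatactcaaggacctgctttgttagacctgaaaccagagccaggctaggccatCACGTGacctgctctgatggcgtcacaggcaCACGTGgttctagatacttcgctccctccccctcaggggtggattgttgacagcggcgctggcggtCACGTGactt

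Of the 97 members, 76 had an upstream window of this length in RefSeq. CACGTG occurred in any window of 5 of them (6.58%), where 6.86% of 27025 genes held it. The motif reads the same on both strands. It was present in 3 of 30 members called lower, 0 of 16 called higher and 2 of the 30 others, which include the untested Ube2s and Rnf157. Other motifs were searched on both strands. TGACNNNGC, the core of the antioxidant response element, occurred in 11.8% of members and 11.5% of genes. GAANNTTC, a heat shock element core, occurred in 6.58% of members and 7.73% of genes, and CCGGAAGT, an Ets motif, in 6 members (7.89%, against 3.23% of genes). A match is a run of letters and not evidence of binding.

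Of 4 E2 enzymes for ubiquitin-like proteins tested, 3 fell and 0 rose, with a median of -0.63, where 59.7% of all genes were called and 30.5% fell. Ube2m, which loads NEDD8 onto most cullins, fell by 0.78 (SE 0.128, adjusted p 3.66e-05), and Ube2f, which does so for Cul5, by 0.48 (SE 0.165, adjusted p 0.0183). With the length trend removed, Ube2m was at -0.47 (adjusted p 0.00305) and Ube2f at -0.72 (adjusted p 0.00113). The Ube2f call was lost with rescaling on nuclear genes (-0.34, adjusted p 0.1) and without young replicate 3 (-0.39, adjusted p 0.0817) or young replicate 4 (-0.42, adjusted p 0.0608). Ube2l6, the E2 for the interferon-induced modifier ISG15, was at 41.8 ± 2.65 (SD, n = 4) and 52.1 ± 13.6 normalized counts (SD, n = 5) and did not pass the test (0.27, adjusted p 0.292), although it was called higher without old replicate 5 (0.44, adjusted p 0.0463) and with the length trend removed (0.57, adjusted p 0.0276).

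Of the 7 remaining E2 genes with other or broad roles, 1 was called (Ube2q2, 0.45, adjusted p 0.0487), 14.3% against 59.7% of all genes. With rescaling on nuclear genes, or without old replicate 4 or old replicate 5, 2 were called, and with the length trend removed 5 were. Ube2q2 was called in 12 of 20 alternatives, and its call was lost when any young library, or old replicate 2 or 3, was left out (adjusted p up to 0.132). Ube2h, an E2 known from red cell maturation, stood at 325 ± 34.4 and 296 ± 33.8 normalized counts (SD, n = 4 and 5; -0.14, adjusted p 0.313), and was called lower with the length trend removed (-0.28, adjusted p 0.0366). The pseudogene Ube2d-ps was nearest 0 among Ube2 members with a mean of at least 50 (0.06, adjusted p 0.801).

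Pairs of members that share a symbol letter or number were then compared within libraries, which cancels library scaling. Of 13 pairs, 5 had log2 ratios that did not overlap between old and young, each at the smallest p an exact permutation test over these libraries can give (two-sided, 0.0159; adjusted over the 13 pairs, 0.0413). The ratio of Ube2v1, whose level is uncertain because of shared sequence, to Ube2v2 shifted by 1.59. The ratio of Rnf19a to Rnf19b shifted by 1.23, of Ube2j1 to Ube2j2 by 0.94, of Ube2q1 to Ube2q2 by -0.69 and of Ube2d1 to Ube2d3 by -0.55. By contrast, the ratio of Ube2g1 to Ube2g2 overlapped between the groups (shift 0.37, exact permutation p 0.397), with both genes lower in old kidneys.

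**Figure D2:**
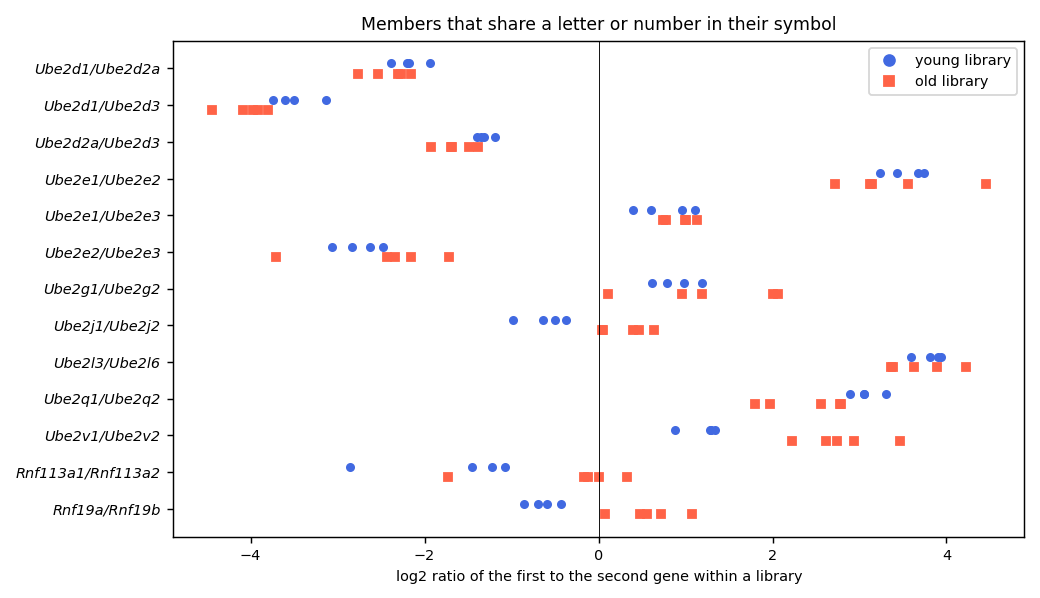
The log2 ratio of 2 members of a pair within a library (horizontal axis) for 13 pairs, with young libraries as blue circles (n = 4) and old libraries as red squares (n = 5). Circles and squares separate in 5 pairs, most widely for Ube2v1/Ube2v2, where young ratios are 0.88 to 1.34 and old ratios 2.22 to 3.46. The level of Ube2v1 is uncertain because much of its sequence also occurs in another gene.

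Among Rnf ligases of the endoplasmic reticulum, 6 of 10 were called, 4 lower and 2 higher, and this 60% was at the background of 59.7%. Of the rises, that of Rnf183 (0.30, adjusted p 0.0385) was lost when young replicate 1, 2 or 3 or old replicate 3, 4 or 5 was left out (adjusted p up to 0.122). Scaling to the total reads of each library also took its call (0.24, adjusted p 0.101). With the length trend removed, Rnf183 was at 0.62 (adjusted p 0.000244). Rnf5 encodes a membrane-anchored ligase of endoplasmic reticulum quality control that also acts on autophagy factors. It had 1021, 1002, 1083 and 1029 normalized counts in young and 58.9, 77.7, 59.8, 47.6 and 42.4 in old libraries, 5.54% of the young mean. The gap between the groups was many times the spread within either, with a log2 change of -4.18 (SE 0.145, adjusted p 9.23e-14). Rnf185, its closest relative, with which it shares substrates, had 172, 145, 144 and 170 in young and 180, 139, 155, 143 and 158 in old libraries. Those groups overlapped throughout, and Rnf185 was among the members nearest 0 (-0.03, SE 0.124, adjusted p 0.869). The log2 ratio of Rnf5 to Rnf185 was 2.56 to 2.90 in young and -1.87 to -0.83 in old libraries, a description of a pair chosen with its values known. In GENCODE (GRCm38) Rnf5 lies at chr17:34601091-34603690 on the minus strand, opposite the antisense gene Gm20463, and 10.1% of its 50-base stretches occur elsewhere; counting used strand.

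Other ligases of this compartment moved less. Rnf145, a sterol-responsive ligase, was at -1.05 (SE 0.137, adjusted p 2.66e-06), with 421, 364, 458 and 391 normalized counts in young and 228, 252, 197, 155 and 166 in old libraries. All its old libraries were below the young. It is a member called lower that has CACGTG upstream of 1 of its 3 listed starts (RefSeq GRCm38.p6, chr11:44518706-44518955, plus strand), 230 bases before the start.
Rnf145: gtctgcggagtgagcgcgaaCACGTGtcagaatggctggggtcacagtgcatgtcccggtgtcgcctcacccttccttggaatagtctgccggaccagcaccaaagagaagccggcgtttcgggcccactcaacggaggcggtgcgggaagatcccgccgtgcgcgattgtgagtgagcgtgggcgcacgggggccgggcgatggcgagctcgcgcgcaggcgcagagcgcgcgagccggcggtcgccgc

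Rnf103 was at -0.85 (adjusted p 4.58e-05) and Rnf121 at -0.57 (adjusted p 0.00666). In the other direction, Rnf170, which targets the activated inositol trisphosphate receptor calcium channel, rose from 41, 41.8, 31.4 and 52.5 normalized counts to 69.5, 77.7, 71, 93.3 and 84.9 (0.93, SE 0.179, adjusted p 0.000209). No old Rnf170 value fell within the young range.

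**Figure D3:**
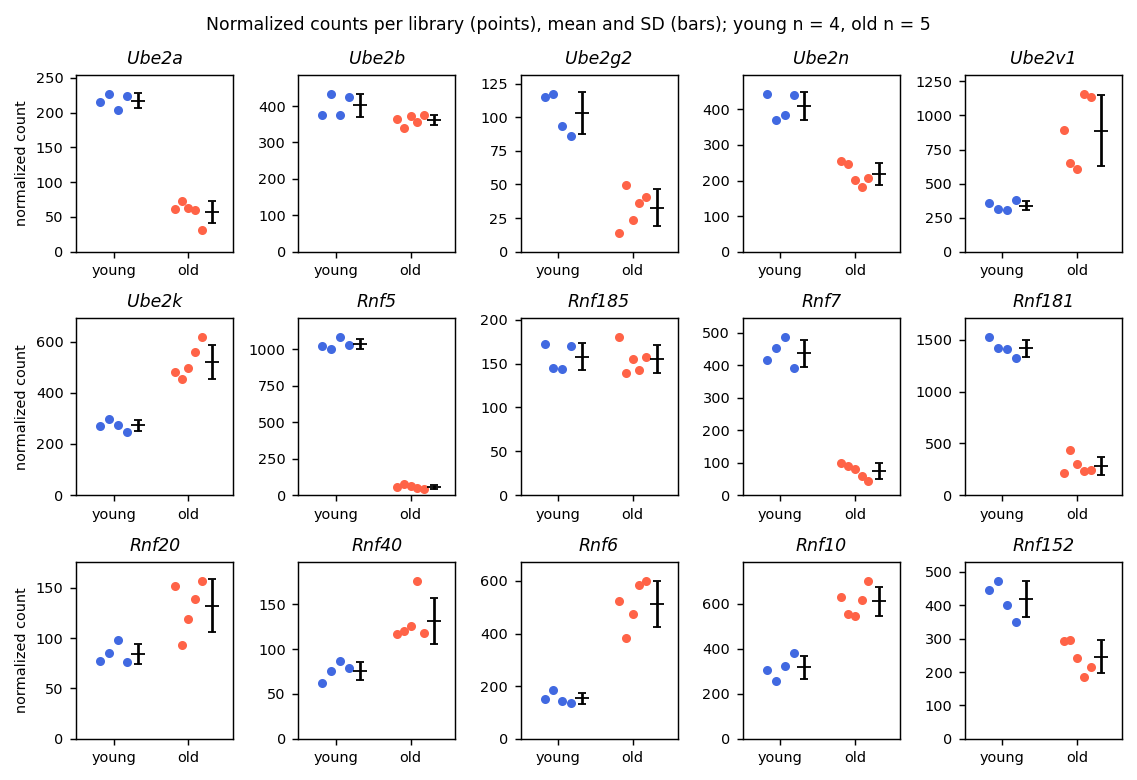
Normalized counts (vertical axes, starting at 0) of 15 members in each young (blue, n = 4) and old (red, n = 5) library, with the mean and SD in black. Rnf5, Rnf7 and Rnf181 drop in every old library, Ube2v1, Ube2k, Rnf6 and Rnf10 are higher in every old library, and Ube2b and Rnf185 overlap between ages.

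Rnf7 and Rnf181 followed Rnf5 in size of decrease. Rnf7 encodes Rbx2, the RING subunit of cullin-5 ligases, and had 417, 452, 486 and 391 normalized counts in young and 99, 90.8, 81.1, 57.8 and 43.5 in old libraries. Its groups were separated by a wide gap (-2.59, SE 0.189, adjusted p 1.73e-09), and 27.4% of its 50-base stretches are shared with other genes. Rnf181, a small RING ligase with the highest young mean of all Rnf members, had 1526, 1418, 1407 and 1323 in young and 212, 432, 300, 238 and 241 in old libraries. Rnf181 fell by 2.36 (SE 0.153, adjusted p 3.51e-10), with old replicate 2 nearest the young level. Across the 58 called members, old replicate 2 was the old library nearest the young mean in 27.

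Of 7 tested ligases of endosomes, lysosomes and nutrient signaling, 6 fell, 0 rose and 1 (Rnf115) was not called, with a median of -0.90. The share that fell was 85.7%, against 30.5% of all genes tested. The list was chosen with earlier results of these data known, so this share is a description. Rnf152, a lysosomal ligase that ubiquitinates RagA and restrains mTORC1, had 445, 474, 402 and 350 normalized counts in young and 292, 298, 241, 184 and 216 in old libraries. The groups did not overlap (-0.77, SE 0.139, adjusted p 0.000101). Rnf167, which ubiquitinates the leucine sensor Sestrin2, had 248, 244, 202 and 225 in young and 151, 210, 209, 146 and 135 in old libraries. Here 2 old libraries reached into the young range, and the change of -0.45 (SE 0.144, adjusted p 0.0111) lost its call with rescaling on nuclear genes (-0.31, adjusted p 0.0856) or when a transcript length trend was removed (-0.23, adjusted p 0.179). The others were Rnf126 (-1.51), which handles mislocalized membrane proteins, Rnf34 (-1.24), Rnf11 (-0.90) and Rnf41 (-1.80), the last at only 11.4 ± 3.7 normalized counts in old libraries (SD, n = 5).

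Protease-associated domain ligases are membrane proteins of the secretory and endosomal route. Of 7 tested, 3 fell and 0 rose, or 42.9% called against 59.7% of all genes. With rescaling on nuclear genes, 1 of them was lower. Rnf130 had 243, 212, 202 and 234 normalized counts in young and 58.9, 65.6, 60.9, 85.8 and 97.6 in old libraries. It changed by -1.61 (SE 0.157, adjusted p 7.82e-08) with no overlap. Rnf128, known as Grail, had the highest counts of the group and did not pass the test (810 ± 44.6 and 758 ± 97.3 normalized counts, SD, n = 4 and 5; -0.10, adjusted p 0.392).

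Chromatin and DNA repair ligases were split, with 4 higher and 3 lower of 9 tested and a median of 0.27, which became -0.06 once a length trend was removed. The shares were 44.4% higher and 33.3% lower, against 29.2% and 30.5% of all genes. Rnf20 and Rnf40 form the ligase that works with Ube2a and Ube2b on histone H2B. Rnf40 had 62.2, 75.8, 86.3 and 78.8 normalized counts in young and 117, 120, 126, 176 and 118 in old libraries (0.78, SE 0.155, adjusted p 0.000288). Rnf20 had 77, 85.5, 98.1 and 76 in young and 152, 93, 119, 139 and 157 in old, with old replicate 2 inside the young range (0.63, SE 0.161, adjusted p 0.00264). Both subunits rose, and their log2 ratio within a library overlapped between the ages (-0.05 to 0.30 in young and -0.37 to 0.41 in old).

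Rnf2 is the catalytic subunit of Polycomb repressive complex 1, which ubiquitinates histone H2A. It had 64.7, 97.2, 58.8 and 77 normalized counts in young and 50.7, 54.7, 58.8, 42.9 and 40.3 in old libraries (-0.57, SE 0.187, adjusted p 0.0138), and was not called without young replicate 2 (-0.43, adjusted p 0.0772) or with rescaling on nuclear genes (-0.43, adjusted p 0.0654). The DNA damage ligases Rnf8 and Rnf168, which act in sequence at double-strand breaks, did not pass the test (0.27, adjusted p 0.195, and 0.06, adjusted p 0.743). Their relative Rnf169 was at 0.31 (adjusted p 0.0484), was called in 12 of 22 alternatives and stood at -0.06 with the length trend removed (adjusted p 0.733). Leaving out young replicate 1 or 3 or old replicate 3, 4 or 5 also took its call (adjusted p up to 0.158). The SUMO-targeted ligases Rnf4 (-0.83, adjusted p 0.000194) and Rnf111 (0.63, adjusted p 0.00131) moved in opposite directions.

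RING-between-RING ligases receive ubiquitin on a cysteine before passing it on. Of 7 tested, 3 rose and 2 fell (42.9% and 28.6%, against 29.2% and 30.5% of all genes), with a median of 0.48. With the length trend removed, 2 were higher and 2 lower and the median was -0.07. The rise of Rnf144a lost its call there (0.28, adjusted p 0.12) and without young replicate 3 (0.39, adjusted p 0.0543). Rnf216 had 78.6, 92.3, 78.4 and 90.5 normalized counts in young and 198, 152, 151, 158 and 170 in old libraries (0.95, SE 0.131, adjusted p 5.21e-06). Rnf14, which acts on stalled ribosomes, moved the other way (-0.73, SE 0.126, adjusted p 6.94e-05). Rnf19a rose (0.63, SE 0.183, adjusted p 0.00598) and Rnf19b fell (-0.59, SE 0.152, adjusted p 0.0025). Rnf31, the catalytic subunit of the linear ubiquitin assembly complex, was at 30.6 ± 6.28 and 23.9 ± 2.97 normalized counts (SD, n = 4 and 5) and did not pass the test (-0.33, adjusted p 0.227). Its 2 partner subunits were both called, Rbck1 higher (0.57, adjusted p 4e-04) and Sharpin lower (-0.58, adjusted p 0.0012).

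Innate immune ligases gave 1 rise and 2 falls among 6 tested, or 2 rises with rescaling on nuclear genes or without old replicate 2. Of the 6, 50% were called and 33.3% were lower, against 59.7% and 30.5% of all genes. Rnf135, a cofactor of the RNA sensor RIG-I, had 36, 44.7, 27.5 and 30.8 normalized counts in young and 67.2, 83.1, 54.8, 64.4 and 61.5 in old libraries. No value was shared between its groups (0.92, SE 0.193, adjusted p 0.000447). Rnf114 had 139, 169, 171 and 178 in young and 49.5, 87.5, 55.8, 41 and 49.9 in old libraries. It fell by 1.56 (SE 0.185, adjusted p 8.46e-07). Rnf213, a giant interferon-induced ligase, was at 0.35 (adjusted p 0.077) and had the longest transcript of all members; it was called higher without old replicate 2 (0.41, adjusted p 0.0426) or with rescaling on nuclear genes (0.49, adjusted p 0.019) and lower once a length trend was removed (-0.42, adjusted p 0.0324).

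The largest rise of a member was that of Rnf6, a nuclear ligase that modifies transcription factors such as the androgen receptor. It had 152, 185, 144 and 137 normalized counts in young and 522, 382, 475, 584 and 602 in old libraries, 3.32-fold higher in the mean (1.72, SE 0.134, adjusted p 4.26e-09). Rnf10, which ubiquitinates small ribosomal subunit proteins, had 308, 257, 323 and 381 in young and 632, 557, 548, 616 and 703 in old (0.95, SE 0.117, adjusted p 1.23e-06). In both genes the lowest old library was above the highest young one. Rnf141, a ligase studied in male germ cells, was lower, with 237, 235, 317 and 254 in young and 82.5, 95.2, 92.3, 88.6 and 65.8 in old libraries (-1.61, SE 0.141, adjusted p 1.86e-08).

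These 3 genes and Rnf181 belong to the 18 tested Rnf members in none of the role groups. Of the 18, 4 were higher, at 0.67 to 1.72, and 7 lower, at -2.36 to -0.34, and the 61.1% called was near the background of 59.7%. Rnf146, which recognizes poly-ADP-ribosylated proteins such as axin, was at -0.97 (SE 0.158, adjusted p 3.61e-05). Rnf187 had 1212 ± 103 normalized counts in young (SD, n = 4) and 949 ± 104 in old libraries (SD, n = 5), a log2 change of -0.36 (SE 0.101, adjusted p 0.00514) that was not called with rescaling on nuclear genes (-0.21, adjusted p 0.0536) or with the length trend removed (-0.13, adjusted p 0.283). For Rnf24, young replicate 4 had 397 normalized counts against 112 to 170 in the other young libraries, and the gene did not pass the test (-0.32, SE 0.299, adjusted p 0.376).

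**Figure D4:**
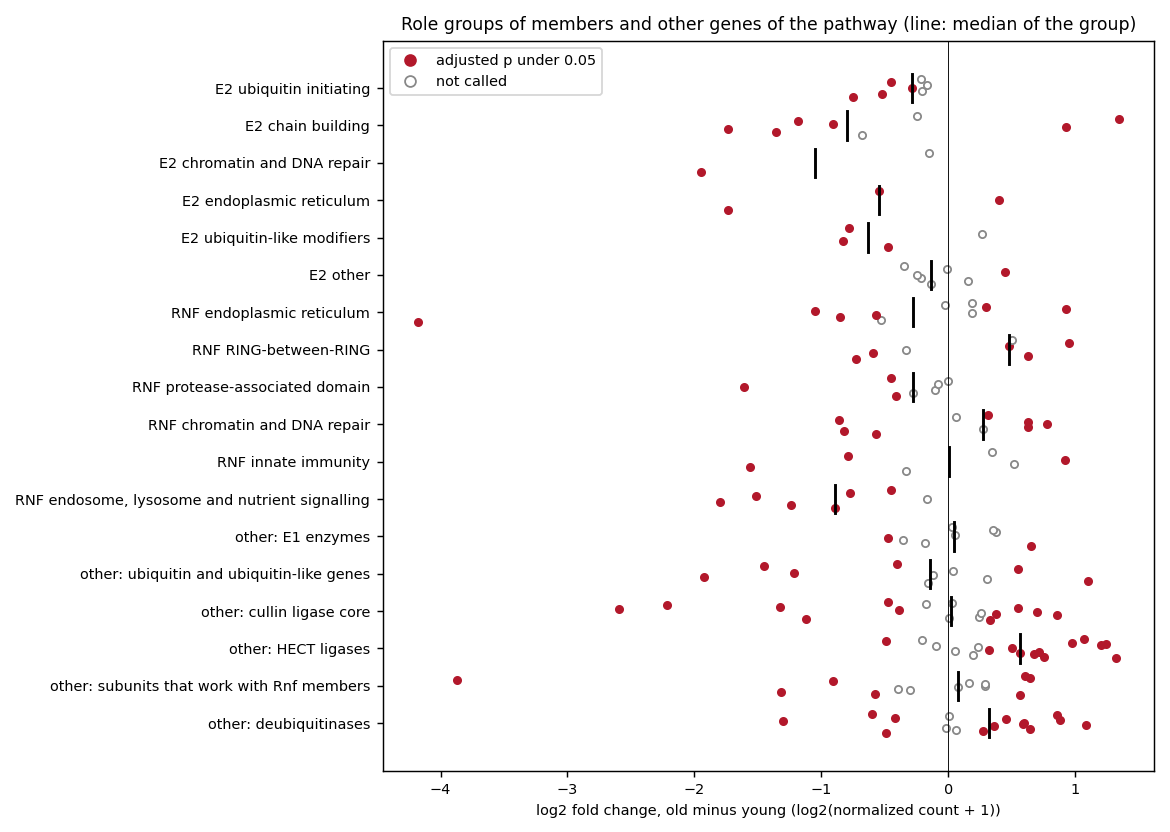
Log2 fold changes (old minus young, horizontal axis) of members by role and, in the 6 bottom groups, of other genes of the pathway; red points have an adjusted p under 0.05 and black lines are medians of the tested genes. Endosome, lysosome and nutrient signaling ligases have their median at -0.90 and HECT ligases theirs at 0.57. The groups were chosen with earlier results of these data known.

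Other parts of the pathway were read beside the families. Of 8 E1 enzymes, 1 rose and 1 fell, or 25% called against 59.7% of all genes. The fall was lost without young replicate 3 or old replicate 4, with rescaling on nuclear genes and with the length trend removed, and there were 2 rises in the last 2 of these and without old replicate 1. Uba1, the main ubiquitin-activating enzyme, rose by 0.65 (SE 0.097, adjusted p 1.25e-05). Of 10 genes for ubiquitin and its relatives, 2 rose and 4 fell, 60% called and thus at the background. Rps27a, which encodes ubiquitin fused to a ribosomal protein, had 2079, 2166, 2060 and 2050 normalized counts in young and 559, 629, 547, 517 and 500 in old libraries (-1.93, SE 0.09, adjusted p 4.9e-12). Nedd8, the modifier that activates cullin ligases, rose by 0.55 (SE 0.087, adjusted p 2.53e-05), and Ubb, a polyubiquitin gene, did not pass the test (-0.16, adjusted p 0.146).

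Of 16 genes of the cullin ligase core, which include Rnf7, 5 rose and 6 fell, and these shares (31.2% and 37.5%) were close to those of all genes (29.2% and 30.5%). With the length trend removed, 2 of 15 were higher and 6 lower. Eloc, the elongin C adaptor that joins cullin-2 and cullin-5 ligases, dropped from 392 ± 20.9 (SD, n = 4) to 84.3 ± 11.9 normalized counts (SD, n = 5; -2.21, SE 0.126, adjusted p 5.95e-11), and Cul4b rose by 0.85 (SE 0.186, adjusted p 0.000659). Of 13 subunits or ligases that act with the members, 3 rose and 4 fell, or 5 and 4 with rescaling on nuclear genes. The 53.8% called was near the 59.7% of all genes. Syvn1, the Hrd1 ligase of the endoplasmic reticulum, had 132, 190, 212 and 158 normalized counts in young and 9.43, 12, 5.07, 14 and 17 in old libraries (-3.87, SE 0.272, adjusted p 1.05e-09). Wac, a partner of Rnf20 and Rnf40, rose by 0.64 (SE 0.107, adjusted p 4.44e-05).

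HECT ligases, the other large E3 class, had 11 rises and 1 fall among 17 tested and a median of 0.57. These are 64.7% higher and 5.88% lower, against 29.2% and 30.5% of all genes tested, in a list chosen with earlier results known. Huwe1 rose by 1.33 (SE 0.092, adjusted p 8.19e-10). With the transcript length trend removed, 8 were higher and 1 lower and the median was 0.25; the median length of their transcripts was 6440 bases, against 3109 over all genes. Among 16 deubiquitinases, 9 rose (56.2%) and 4 fell (25%), with Usp15 at 1.09 (SE 0.161, adjusted p 1.18e-05) and Uchl3 at -1.30 (SE 0.234, adjusted p 9.91e-05).

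Transcript length went with the change among Rnf members, as it did over all genes. As a description across genes, which share their libraries, Spearman's rho between longest annotated transcript and log2 fold change was 0.35 over 63 Rnf members, 0.04 over 31 Ube2 members and 0.29 over 12433 genes. Called members that were higher had a median transcript of 3946 bases and those that were lower 3002 bases. Removing the trend from each library left 21 Ube2 calls (6 higher, 15 lower) and 39 Rnf calls (13 higher, 26 lower), and 52 of the 58 calls were kept.

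**Figure D5:**
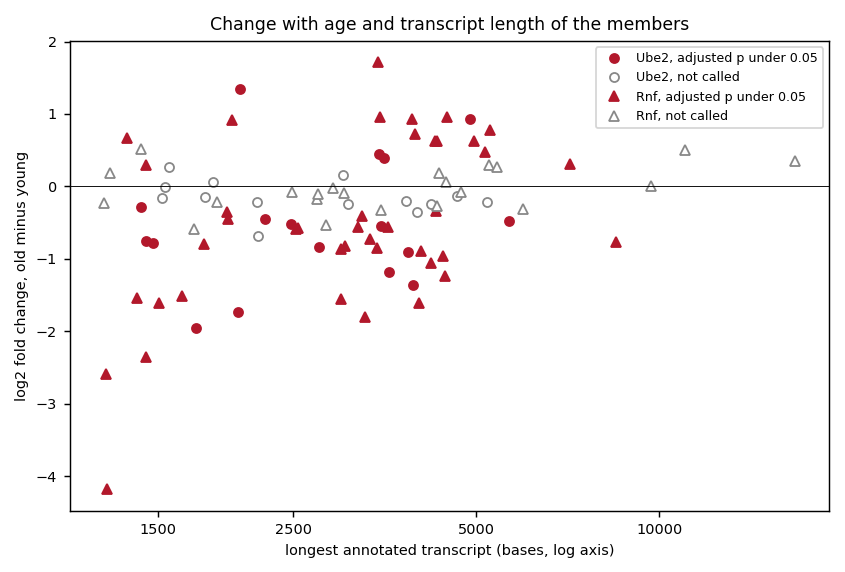
Log2 fold change (vertical axis) against the length of the longest annotated transcript (horizontal log axis, bases) of the tested members, with Ube2 as circles, Rnf as triangles and called members in red. Rnf5 (-4.18) and Rnf7 (-2.59) are among the shortest transcripts, and Rnf181 (-2.36) and Rnf130 (-1.61), also short, lie well below 0, while Rnf208 (0.67) lies above it.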

How the data were processed

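The authors sequenced QuantSeq 3′ libraries of total kidney RNA, aligned reads to GRCm39 with TopHat2 (2.0.10), counted strand-specifically with HTSeq (0.6.1) and deposited normalized counts scaled by DESeq size factors. This deposited signal is not integer counts, but 100% of values were whole multiples (within 0.01) of what 1 read is worth in that library, so reads were recovered. The authors' kit version differs between labels and paper.

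Values were tested as log2(normalized count + 1) with limma (3.58.1, variance trend, R 4.3.3) over 12667 genes with at least 10 normalized counts in at least 4 libraries, with Benjamini-Hochberg adjustment over all of them. Fold changes are on this scale and understate changes of low genes. Pairs were tested in scipy (1.17.1). edgeR (4.0.16) and DESeq2 (1.42.0) on recovered reads were alternatives. The fit was tested first on simulated data in which few genes changed. Most genes were called in the real data, so that test does not cover this setting. The labels do not tie libraries to named animals, so p-values measure the spread between libraries, which may be technical. A count of 0 would allow a share of up to 4.72e-05% to 6.69e-05% of a library (3 reads, counting error only).

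Named genes were, in each family, up to 6 rises and 6 falls of largest size among called members with a mean of at least 50 and no overlap, the 2 nearest 0 and a set of genes of known role, plus the largest rise and fall of each list of other genes. Further members were named after their values were seen, to fill their role groups. Members and lists were chosen with earlier results of these data known. Lengths, overlaps and shared 50-base stretches came from GENCODE vM21 (GRCm38), which 12833 of 13081 symbols matched, a build other than that of the counts. Results of a few genes in these lists are not reported here.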

Additional observations from a re-analysis of the deposited data

Results flagged for a closer look

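Among 212 groups of libraries of members and named genes, 9 held a library far from the rest of its group by Dixon's test, where chance gives about 1 in 20, or 10.6. Gap ratios were as follows. Ube2j2 reached 332 normalized counts in young replicate 3, against 251 to 255 elsewhere in the young group (0.947), and Ube2q1 reached 421 in young replicate 2, against 405 to 406 (0.903). Young replicate 3 was also apart for Eloc, with 361 against 399 to 405 (0.873), and for Rnf103, with 136 against 107 to 111 (0.867). Young replicate 4 stood apart for Uba1, at 928 against 763 to 786 (0.845), and for Usp15, at 58.8 against 95.1 to 104 (0.842). In the old group, replicate 4 was high for Rnf40, with 176 against 117 to 126 (0.819), and replicate 5 was low for Ube2a, with 30.8 against 60.6 to 72.2 (0.794), and for Rnf19a, with 61.5 against 97.4 to 116 (0.728). In each of these genes except Rnf19a, the old and young values did not overlap.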

How the results depend on the processing

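Over 22 alternatives, 45 of the 58 called members were called in each one that tested them and 56 kept their direction. The counts over a whole family or over all genes moved by more than 1.5 times only in 2 alternatives that tested fewer genes, while those of small role groups also moved in others. Leaving out genes with any shared 50-base sequence gave 3 Ube2 calls (1 higher, 2 lower, 2 at 1.5-fold or more), 24 Rnf calls (7 higher, 17 lower, 18 at 1.5-fold or more), 3945 over all genes, 20 in the role groups and 20 in the lists of other genes. Testing only genes with a mean of 100 or more gave 23 Rnf calls (9 higher, 14 lower, 16 at 1.5-fold or more) and 4101 over all genes. edgeR called 17 Ube2 and 41 Rnf members, DESeq2 18 and 40. Leaving out 1 library at a time gave 15 to 20 Ube2 and 38 to 42 Rnf calls.

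Among called members, Ube2e1 (0.04) and Rnf169 (-0.06) changed sign with the length trend removed. Of members not called, with mitochondrial genes left out, Ube2h was at 0.007 and Rnf185 at 0.115. With the length trend removed, Rnf185 was at 0.072, Rnf168 at -0.056, Ube2b at 0.104 and Rnf213 at -0.415 (adjusted p 0.0324). Leaving out 1 library at a time gave -0.082 to 0.017 for Rnf185 and -0.015 to 0.174 for Ube2d-ps. Apart from the construction of the alternatives, the cause was not tested. No paired analysis was possible because the sample names carry no replicate numbers shared between the ages. At this depth, members near the filter had few reads per library, and the size of change that could be detected in them was not tested.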
